A study of Mus musculus with 3 samples.

Results

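Enteroendocrine cells (EECs) of ENR+CD organoids were studied here as the ENR+CD cells in which the transcripts of Chga and Chgb, the chromogranins of hormone granules, made up at least 1% of all transcript molecules. The rule also asked for 0 or 1 molecule of Neurog3, the transcription factor of endocrine precursors. It was applied to cells with 1000 to 7999 unique molecular identifiers (UMIs, counted transcript molecules) and at least 400 genes, and it found 105 of 2383 such ENR+CD cells, which is 4.41% (95% Clopper-Pearson interval 3.62 to 5.31). These 105 cells are part of 5913 kept cells in the whole series, and they were compared with the 2278 other ENR+CD cells and with the cells that met the same rule in the other libraries.

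Transcripts of single cells were captured by Seq-Well, in which cells settle with barcoded capture beads in an array of small wells. The organoids came from small intestinal crypts of C57BL/6 mice aged 3 to 6 months, and all were first grown in the stem cell medium ENR+CV, which holds the growth factors EGF, Noggin and R-spondin 1 with 3 µM CHIR99021, a GSK3 inhibitor that raises Wnt signaling, and 1 mM valproic acid, a histone deacetylase inhibitor. The ENR+CD cells were then cultured for 6 days with the growth factors, 3 µM CHIR99021 and 10 µM DAPT, a gamma-secretase inhibitor that blocks Notch signaling, while the ENR cells had the growth factors alone for 6 days. Each of the 3 conditions was 1 array loaded with cells pooled from 6 wells and 1 donor, so medium and library cannot be told apart, no test between conditions was possible, and every interval given covers counting error only.

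EECs are the hormone-secreting cells of the gut lining. They arise from secretory progenitors through a wave of Neurog3, after which other factors such as Neurod1, Pax6 and Nkx2-2 hold the endocrine program, and they pack prohormones, cut and amidated by dedicated enzymes, into dense granules whose matrix is built from granins. Notch signaling holds progenitors back from the secretory fate, and the EEC subtypes are told apart by what they release, for example serotonin, secretin, cholecystokinin or glucagon-like peptides.

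Genes of granins and prohormone processing were mostly higher in these cells than in the other ENR+CD cells, Chga and Chgb by the rule itself. Vgf, Pcsk2 and Qpct of these lists were at 0 UMIs. Whether the genes varied together across cells was not tested. Promoters of some of the higher genes are shown, each as 250 bases before and 50 bases after the transcription start in RefSeq (GRCm38.p6). They are read 5′ to 3′ on the strand of the gene. Capitals mark the cAMP response element TGACGTCA, or its shorter form TGACG on either strand where it stands alone.
Chga, chr12:102554691-102554990, plus strand: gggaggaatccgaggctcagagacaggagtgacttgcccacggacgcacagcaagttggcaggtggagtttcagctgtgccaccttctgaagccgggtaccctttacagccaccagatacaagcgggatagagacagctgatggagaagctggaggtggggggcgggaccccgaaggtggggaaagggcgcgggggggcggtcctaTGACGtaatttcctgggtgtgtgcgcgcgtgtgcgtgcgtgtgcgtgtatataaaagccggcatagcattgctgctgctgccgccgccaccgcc
Chgb, chr2:132781392-132781691, plus strand: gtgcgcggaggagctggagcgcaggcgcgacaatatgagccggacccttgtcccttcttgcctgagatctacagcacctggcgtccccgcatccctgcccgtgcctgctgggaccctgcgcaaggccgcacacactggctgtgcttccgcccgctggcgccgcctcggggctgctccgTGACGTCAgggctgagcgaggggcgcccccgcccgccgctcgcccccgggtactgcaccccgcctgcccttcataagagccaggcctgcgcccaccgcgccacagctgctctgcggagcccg
Scg2, chr1:79439977-79440276, minus strand: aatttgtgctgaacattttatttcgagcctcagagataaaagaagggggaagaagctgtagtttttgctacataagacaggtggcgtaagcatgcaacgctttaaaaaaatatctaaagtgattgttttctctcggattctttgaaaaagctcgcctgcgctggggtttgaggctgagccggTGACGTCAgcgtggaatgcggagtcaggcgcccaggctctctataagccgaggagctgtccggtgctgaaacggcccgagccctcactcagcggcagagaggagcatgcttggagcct
Pcsk1, chr13:75089607-75089906, plus strand: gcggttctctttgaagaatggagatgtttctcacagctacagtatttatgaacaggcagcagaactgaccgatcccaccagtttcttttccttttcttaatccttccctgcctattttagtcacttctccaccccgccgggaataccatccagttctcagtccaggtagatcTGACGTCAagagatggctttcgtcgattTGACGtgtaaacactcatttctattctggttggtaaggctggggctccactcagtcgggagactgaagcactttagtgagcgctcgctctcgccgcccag
The full element began 72 bases before the start of Chgb, 68 before that of Scg2 and 78 before that of Pcsk1, which encode 2 granins and a prohormone convertase. Chga held the shorter form 44 bases before its start. Of 16 granin, granule and processing genes, 13 had a window and 3 of these held the full element, against 588 of 32851 RefSeq windows (1.79%). The shorter form outside a full element was held by 6 of the 13 genes (46.15%), against 19.5% of all windows. The 13 genes had 15 windows, so genes are set against single windows here. Among 21 hormone genes with a window, the full element was found in Cartpt and Sst. Cartpt was at 2 UMIs in the ENR+CD EECs and Sst at 1. A match is a run of letters, and binding was not measured.

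The chromogranin values that chose the cells formed a continuous slope with no gap at the threshold. In the EECs the chromogranin share ran from 1.004% over a median of 1.62% to 7.62% of the UMIs of a cell. Chgb ran from 8 UMIs over a median of 24 to 300 UMIs, and Chga from 0 over a median of 5 to 41. Just outside the threshold, from 0.9% to below 1%, lay 21 cells with a median of 15 chromogranin UMIs, and just inside, from 1% to below 1.1%, lay 14 with a median of 14. A further 12 cells past 1% had at least 2 Neurog3 UMIs and were left out by the rule, and 10 of the EECs had 1 Neurog3 UMI. The EECs held 34.5% of the chromogranin UMIs of kept ENR+CD cells, so most lay below the threshold.

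**Figure D1:**
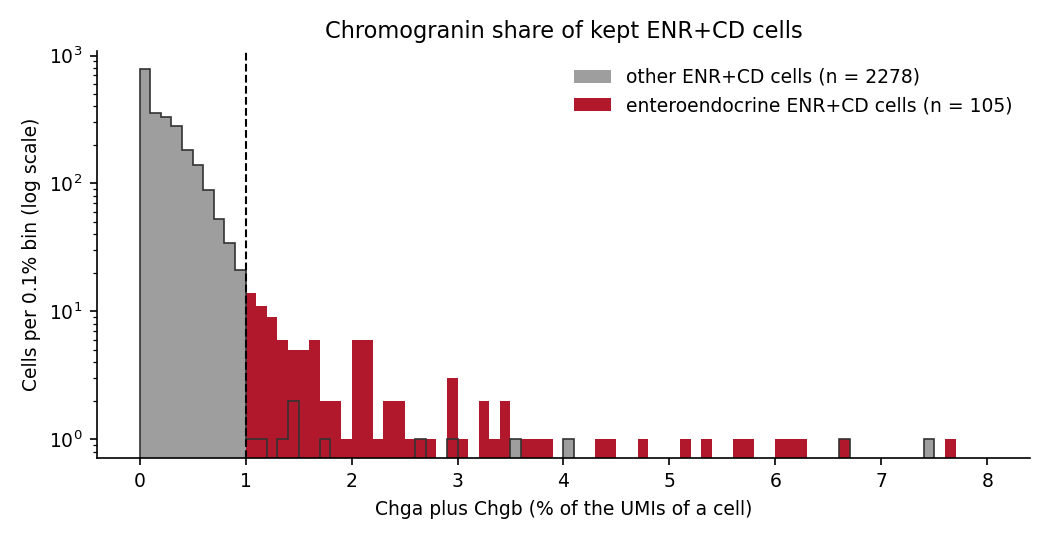
Chga plus Chgb as percent of the UMIs of each kept ENR+CD cell (x axis, bins of 0.1%) against the number of cells on a log scale (y axis), with the 105 EECs in red, the 2278 other cells in grey with a dark outline and the 1% threshold dashed. The counts fall without a gap across the threshold, and the grey cells past it are the 12 with at least 2 Neurog3 UMIs.

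Of the 4 given markers, Chgb and Chga were used by the rule, so Scgn and Nts were left to check the name. Scgn, a calcium sensor of endocrine cells, was found in 28 of 105 cells at 191 CPM (UMIs of a gene per 1000000 UMIs of the group, 95% Poisson interval 139 to 256), against 48.3 CPM in the other ENR+CD cells. Nts, the hormone neurotensin of a mature EEC subtype, was at 0 UMIs in the EECs, which allows a level of up to 13.0 CPM and a share of up to 2.86% of cells. The other ENR+CD cells held 214 Nts UMIs in 52 cells, of which 133 lay in 1 cell with 2 chromogranin UMIs. Apart from the chromogranins of the rule, the name EEC therefore rests on Scgn, found in a minority of the cells, and on the granule, processing and hormone genes below, and it covers no Nts cells.

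The same rule found 60 of 2545 ENR cells, 2.36% (1.80 to 3.02), and 2 of 985 ENR+CV cells, 0.203% (0.0246 to 0.732). With 1 library per condition these shares could not be tested. The EECs had a median of 1637 UMIs and 876 genes per cell, against 1542 UMIs and 759 genes in the other ENR+CD cells and 1694 UMIs in the ENR EECs. Their median mitochondrial share was 7.99% and that of the other ENR+CD cells 7.16%. No EEC barcode was shared with a kept cell of another library, 1 barcode being shared between kept ENR and ENR+CD cells. Markers of immune, stromal, endothelial, glial and neural cells made up 0.00520% of the EEC UMIs, with 12 of 15 at 0 UMIs (Ptprc, Cd3e, Csf1r and Pecam1 among them).

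Against the other ENR+CD cells, genes were called by size alone, as higher or lower if the 95% Poisson intervals of both CPM values did not meet and the ratio was 2 or more either way, among genes with 20 or more UMIs in both groups together. Since the cells were chosen within this library by the chromogranins, these counts are a description and carry no test. Of 10844 genes that passed the minimum, 792 (7.30%) were higher and 187 (1.72%) lower in the EECs, and the median log2 ratio of all genes was 0.24. Under a median-of-ratios scaling, which moved that median to 0.03, 523 were higher and 306 lower, so the share of higher calls went from 80.9% to 63.1%.

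The granins and granule proteins, which build the core and membrane of hormone granules, took 2.86% of the EEC UMIs (2.79 to 2.93) against 0.315% in the other cells, but 5773 of these 6598 EEC UMIs were Chga and Chgb. Without these 2 genes of the rule the list took 0.358% (0.334 to 0.383) against 0.06003% (0.0577 to 0.0624). Of the 9 others listed, 8 passed the minimum and these 8 were higher, beside a background of 7.30% of all genes, with a median log2 ratio of 2.55. Chgb stood at 21603 CPM against 2170 CPM, and Chga at 3420 CPM against 380.5 CPM, values that the rule itself fixed. Scg2, secretogranin II, had a median of 1 UMI per cell and up to 59, and 1482 CPM (1329 to 1648) against 226.6 CPM, a ratio of 6.54 (5.77 to 7.41). Resp18, a granule protein of endocrine cells, was 7.44-fold higher at 602.5 CPM, and Ptprn, a granule membrane protein, 6.37-fold higher at 65.0 CPM. Scg3 and Scg5, which take part in sorting granins and in chaperoning the convertase PC2, were 4.88- and 5.76-fold higher. Vgf, a further granin, was at 0 UMIs.

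Prohormone processing genes followed the granins in level. Of 7 listed, 5 passed the minimum and were higher, of which Scg5 and Pcsk1n are on both lists, beside 7.30% of all genes. Cpe, the carboxypeptidase that trims prohormone fragments, stood at 1482 CPM (1329 to 1648) against 219 CPM, a ratio of 6.76 (5.95 to 7.66). Pcsk1, the convertase PC1/3, stood at 832 CPM against 150.2 CPM, a ratio of 5.54 (4.69 to 6.52), and its inhibitor Pcsk1n was 5.92-fold higher. Pam, the enzyme that amidates peptide ends, was 4.28-fold higher at 260.1 CPM. Pcsk2, the convertase PC2, was at 0 UMIs in the EECs and at 12 UMIs in the other cells.

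Peptide hormones took 1.995% of the EEC UMIs (1.94 to 2.05), but unevenly, from 0 to 21.8% of the UMIs of a cell with a median of 0.827%. Of 22 listed, 12 passed the minimum and 8 were at 0 UMIs. Of the 12, Sct, Tac1, Cck, Gcg, Iapp, Pyy and Gast were higher, Nts was lower, and Gip, Ghrl, Pomc and Nmb were counted as neither. Over all genes 7.30% were higher and 1.72% lower. With a threshold of 2% chromogranin 3 of the hormones were higher. Sct, secretin, was the most widespread: it was found in 88 cells, with at least 2 UMIs in 76, a median of 4 and a highest value of 119 UMIs. Its level was 4976 CPM (4692 to 5272) against 977 CPM in the other cells, a ratio of 5.09 (4.77 to 5.44). Tac1, the substance P precursor of serotonin cells, was at 2 or more UMIs in 57 cells, with a median of 2 and a highest value of 113 UMIs, and stood at 3745 CPM against 384 CPM, a ratio of 9.75 (8.97 to 10.6). Sct and Tac1 were thus broad, while most UMIs of Cck and Gcg lay in a few cells.

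Cck, cholecystokinin, was at 2 or more UMIs in 35 cells, but 3 cells held most of its 1029 UMIs. Its ratio of 5.46 came to 3.48 without the cell with most. Gcg, proglucagon, was at 2 or more UMIs in 17 cells, and 1 cell of 5134 UMIs held 703 of 1163 Gcg UMIs together with 389 Cck UMIs. The Gcg ratio of 6.53 came to 2.64 without that cell and turned to a log2 ratio of -0.80 when only cells with at least 2% chromogranin were taken. Gip, the hormone of K cells, lay almost whole in 1 cell, with 137 of 160 UMIs, and its ratio of 1.65 came to 0.242 without it. Gast, gastrin, had 56 UMIs, of which 48 lay in 2 cells of 30 and 18 UMIs. Its ratio of 34.9 came to 16.3 without the cell with most. Iapp, amylin, was 9.26-fold higher at 277 CPM with at least 2 UMIs in 11 cells, and Pyy, peptide YY, 2.15-fold higher at 117 CPM. Sst, the somatostatin of D cells, was at 1 UMI, and Ppy and Vip were at 0.

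**Figure D2:**
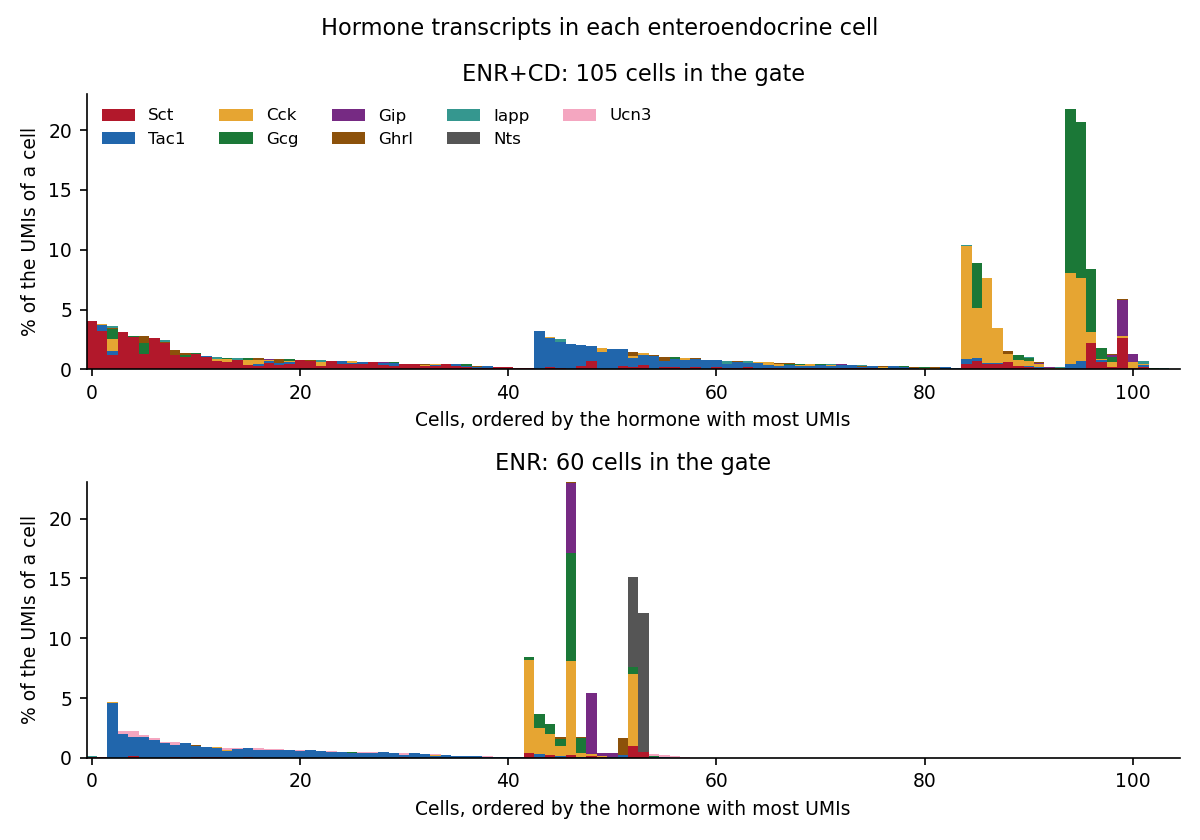
Transcripts of 9 hormones as stacked percent of the UMIs of each cell that met the rule (y axis), for 105 ENR+CD cells (top) and 60 ENR cells (bottom), ordered along the x axis by the hormone with most UMIs. In ENR+CD 30 cells are led by Sct and 25 by Tac1 and the tallest bar reaches 21.8%, while in ENR none is led by Sct and 2 are led by Nts.

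Sorted by the hormone with most UMIs, with at least 5, 30 EECs were led by Sct, 25 by Tac1, 6 by Cck, 5 by Gcg, 2 by Gip and 1 by Iapp. A tie was found in 4 cells and 32 had no hormone at 5 UMIs. At least 2 hormones at 2 or more UMIs each were found in 70 of 105 EECs (66.7%), most often Sct with Tac1 (37 cells) and Sct with Cck (28 cells). These were also the most widespread hormones, with Sct at that level in 76 EECs, Tac1 in 57 and Cck in 35. Whether any pair went together beyond these numbers was not tested. Gcg and Cck went together in 11 of the 17 Gcg cells. After thinning every cell to 1000 UMIs, 48 EECs (45.7%) carried 2 hormones or more, against 21.7% of the other ENR+CD cells and 8.30% of 229 defensin-rich cells with at least 30% of their UMIs on Paneth genes. At equal thinned depth the EECs thus carried 2 hormones more often than either of these groups. The other ENR+CD cells are not free of endocrine cells, since they hold most of the chromogranin UMIs.

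Hormone transcripts were also found outside the EECs. Each level is therefore set beside its level in 2659 ENR+CD barcodes of 100 to under 500 UMIs, which hold free RNA and small or broken cells. In these barcodes Sct stood at 1526 CPM, Cck at 1420 CPM, Gcg at 837 CPM and Tac1 at 610 CPM, each below the EECs. Ghrl, ghrelin, stood at 1175 CPM there against 364 CPM in the EECs, and Gip at 976 CPM against 693.5 CPM, so the EEC averages of both lay below these barcodes. Ghrl was at 2 or more UMIs in 15 EECs, 14 of which also had at least 2 Sct UMIs, as did 76 of all 105. Chgb stood at 2170 CPM in the other ENR+CD cells and at 3667 CPM in these barcodes. The part of free RNA in these levels was not tested. After thinning, Sct was found in 75.2% of the EECs and in 37.1% of the defensin-rich cells, whose median depth was 1835 UMIs, and Tac1 in 61.0% and 12.7%. For Gcg the thinned shares were 19.0% of the EECs and 29.3% of the other ENR+CD cells, an order opposite to that of the CPM.

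**Figure D3:**
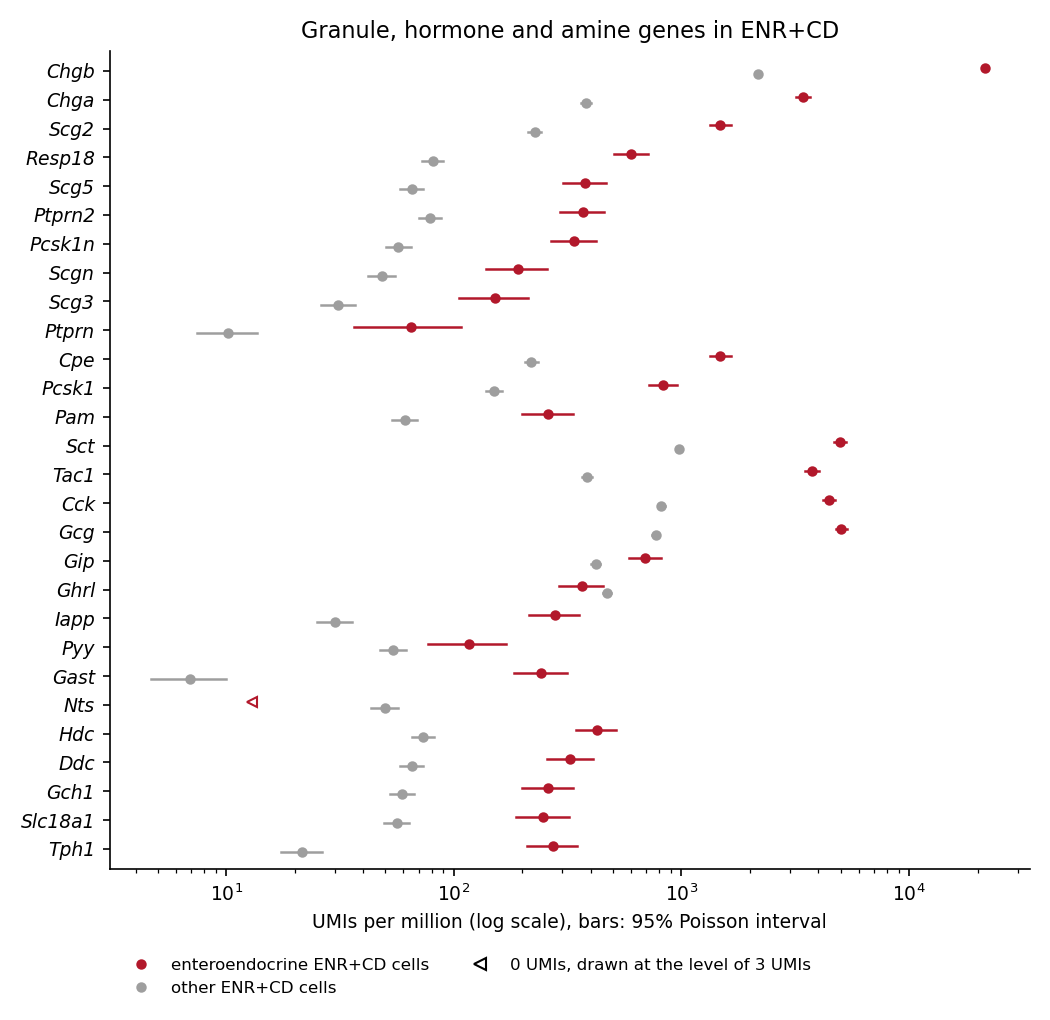
Level of granule, processing, hormone and amine genes in CPM (x axis, log scale) in the 105 EECs (red) and the 2278 other ENR+CD cells (grey), with 95% Poisson intervals as bars and genes at 0 UMIs drawn as open triangles at the level of 3 UMIs. The red points lie to the right for every gene drawn apart from Ghrl, which is further left, and Nts, which is at 0 UMIs.

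The genes of serotonin and histamine were mostly higher in the EECs, and Tph1 and Hdc were spread unequally over the hormone classes. Of 8 listed, 6 passed the minimum and 5 were higher, with Maoa as the exception, beside 7.30% of all genes. Tph1, the rate-limiting enzyme of serotonin synthesis in the gut, had a ratio of 12.7 (9.04 to 17.6) at 273 CPM, and 21 of its 63 UMIs lay in 1 cell. Its UMIs lay mostly in Tac1-led cells, with 46 UMIs (761.8 CPM) there and 2 UMIs (26.6 CPM) in Sct-led cells. A further 14 Tph1 UMIs (289 CPM) lay in cells with no leading hormone. Only 6 EECs had at least 2 Tph1 UMIs. Of these, 5 had at least 2 Tac1 UMIs, as did 57 of all 105, and 3 had at least 2 Sct UMIs. Hdc, the enzyme that makes histamine, had a ratio of 5.79 (4.57 to 7.29) at 425 CPM, with 46 UMIs (611 CPM) in Sct-led and 8 UMIs (132.5 CPM) in Tac1-led cells. The 6 Cck-led cells had 10 Hdc UMIs (908 CPM) and the 5 Gcg-led cells 8 (736 CPM), so Hdc was not particular to Sct-led cells. Of 14 EECs with at least 2 Hdc UMIs, 12 had at least 2 Sct UMIs, as did 76 of all 105. Ddc, the decarboxylase of serotonin synthesis, Gch1, which makes the cofactor of Tph1, and Slc18a1, the vesicle transporter VMAT1, were 4.98-, 4.38- and 4.40-fold higher. Ddc was not divided in this way, with 25 UMIs in Sct-led and 25 in Tac1-led cells, and Slc18a1 had 24 and 14. Slc18a2, the transporter VMAT2, had 3 UMIs and Slc6a4, the serotonin transporter, 2.

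Endocrine transcription factors were low in level and mostly higher in the EECs. Of 24 measured, 21 passed the minimum and 13 were higher, beside 7.30% of all genes, with a median log2 ratio of 1.49. Neurod1, the factor downstream of Neurog3, was found in 46 cells with up to 11 UMIs, at 416 CPM (337 to 508) against 105 CPM. Nkx2-2, Pax6, Insm1 and Rfx6, factors of EEC identity, stood at 113, 47.7, 60.7 and 95.4 CPM, each between 2.42- and 3.95-fold higher. Lmx1a and Fev, which are tied to serotonin cells, were 7.002- and 4.63-fold higher, and 22 of 32 Fev UMIs lay in Tac1-led cells. Runx1t1, a transcriptional corepressor, was 5.83-fold higher at 169 CPM. All 8 cells with at least 2 of its UMIs also had at least 2 Tac1 UMIs, as did 57 of all 105. Etv1, an ETS factor, was 4.49-fold higher with 16 UMIs (212 CPM) in Sct-led and 3 in Tac1-led cells. The 6 Cck-led cells had 4 Etv1 UMIs (363 CPM) and the 5 Gcg-led cells 6 (552 CPM). Isl1, a factor of several hormone lineages, had 3 UMIs, Pdx1 had 2 and Mnx1 0. Neurog3 was lower at 43.3 CPM against 100.1 CPM, as the rule set.

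The machinery of regulated secretion was higher in part, beside 7.30% of all genes called higher. Of 20 exocytosis genes, 16 passed the minimum and 9 were higher: Rab3c, Snap25, Syt13, Cadps, Cplx2, Vamp2, Rph3al, Syp and Rims2. Rab3c, a small GTPase of secretory vesicles, stood at 321 CPM (252 to 403) against 45.3 CPM and Snap25, a SNARE protein, at 143 CPM against 20.4 CPM. Syp, a membrane protein of small vesicles, had 1 UMI in each of 18 cells. Of 17 ion channel genes 8 passed, and Scn3a, Cacna2d1, Cacna1a and Kcnh2, subunits of sodium, calcium and potassium channels, were higher. The Kcnh2 ratio of 4.91 rested on 5 UMIs and came to 1.98 without the cell with most. Of 20 receptor genes 5 passed, and Ffar2, a receptor for short-chain fatty acids, Sstr1, a somatostatin receptor, and Gfra3, a coreceptor of the GDNF family, were higher at 113, 30.3 and 65.0 CPM. Casr, Gpbar1, Gpr119 and Mc4r, sensors of amino acids, bile acids, lipids and melanocortin, were at 0 UMIs.

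Further genes with the highest ratios belong to none of these lists. Igfbp2, which binds insulin-like growth factors, was found in 44 cells with up to 27 UMIs, at 793 CPM against 102 CPM, a ratio of 7.78 (6.51 to 9.27). Of its 183 UMIs 103 (1367 CPM) lay in the 30 Sct-led cells and 31 (2814 CPM) in the 6 Cck-led cells. The 25 Tac1-led cells had 30 Igfbp2 UMIs (497 CPM) and the 5 Gcg-led cells 2 (184 CPM). Msx1, a homeobox factor, was found in 24 cells with a ratio of 7.81 (5.52 to 10.9), and Cd177, a cell surface glycoprotein, in 17 cells with a ratio of 8.86 (6.09 to 12.7). Krt20, a keratin of differentiated gut cells, was 6.92-fold higher at 602.5 CPM. Rimbp2, which tethers calcium channels to release sites, Dnajc12, a cochaperone of aromatic amino acid hydroxylases, Slc35g2, Gpr112 and C630043F03Rik were 6.16- to 6.60-fold higher. Reg4, a secreted lectin of endocrine and goblet cells, was found in 47 cells with up to 303 UMIs, at 4642 CPM against 801 CPM.

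The lowest ratios among genes with at least 100 UMIs belonged to Gsta1 and other genes of few UMIs. Gsta1, a glutathione transferase, had 2 UMIs in the EECs and a ratio of 0.0497 (0.00600 to 0.180). Gsta4, of the same family, had 5 UMIs and a ratio of 0.117 (0.0379 to 0.275). Arl14, a small GTPase, had 2 UMIs and a ratio of 0.0904 (0.0109 to 0.329). Lgals3, galectin 3, had 1 UMI and a ratio of 0.0857 (0.00216 to 0.482). Ccl6, Slc4a4, Slfn9, Ptgds, Mtap and Gart each had 1 UMI as well, with ratios from 0.0911 to 0.122 and upper bounds from 0.513 to 0.690.

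Paneth cell genes, which encode the antimicrobial proteins of the crypt base, were lower in the EECs than in the other ENR+CD cells and still present. The 26 measured genes took 5.51% of the EEC UMIs (5.42 to 5.605) against 15.5% in the other cells. Of 23 that passed the minimum 21 were lower, beside 1.72% of all genes, and Itln1 and Pla2g1b were the exceptions. At a threshold of 0.5% chromogranin, which takes in 18.2% of the cells, none of them was lower. Lyz1, lysozyme, had a median of 4 and a highest value of 91 UMIs, and stood at 3879 CPM against 14531 CPM. Defa24, an alpha-defensin, stood at 20858 CPM against 63465 CPM, and Mmp7, the protease that activates defensins, at 1500.0 CPM against 4002 CPM. The list was at 9.78% in the barcodes of 100 to under 500 UMIs, above its share in the EECs, and the part of free RNA in the EEC average was not tested.

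Between cells the Paneth share spread widely, from 0.166% over a median of 4.09% to 28.2%. It was under 1% in 23 EECs, at least 10% in 21 and at least 20% in 10. Cells with more chromogranin had less: the median Paneth share was 10.2% at 1.0% to below 1.1% chromogranin, 2.33% from 2% to below 4% and 0.878% at 4% or more. The 61 EECs below 2% chromogranin had a median of 6.78% and the 44 at 2% or more 1.84%. The 2 shares are parts of the same UMIs, and a doublet caller marked 8 of 2383 kept ENR+CD cells and none of the EECs, which is too few for the caller to have worked. The part of doublets in the mixed cells was not tested. Without the 21 cells of at least 10% Paneth UMIs, 84 cells were left, and 898 genes were higher and 183 lower. Counted as higher were 10 granins and 7 hormones, as many as with those cells. Chga and Chgb are among the 10, and the rule fixed their calls in both settings.

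**Figure D4:**
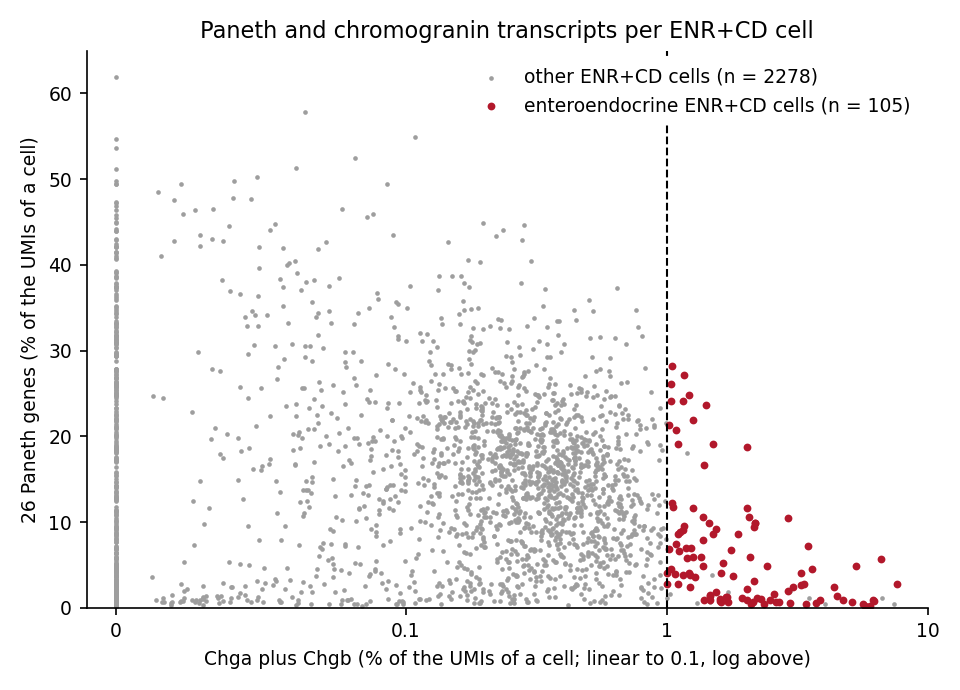
Percent of UMIs on the 26 Paneth genes (y axis) against percent on Chga plus Chgb (x axis, linear to 0.1% and log above) for each kept ENR+CD cell, with the 105 EECs in red, the 2278 other cells in grey and the 1% threshold dashed. Red cells near the threshold spread up to 28.2% Paneth UMIs, while cells of at least 4% chromogranin have a median of 0.878%.

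Itln1, intelectin 1, a lectin that Paneth and goblet cells secrete, did not keep the proportion of most other Paneth genes. It stood at 11114 CPM (10688 to 11552) against 16367 CPM, a ratio of 0.679 (0.653 to 0.706), where Lyz1 was at 0.267 (0.2497 to 0.285). Itln1 made up 20.2% of the Paneth UMIs in the EECs, 10.6% in the other ENR+CD cells, 10.4% in the defensin-rich cells and 11.5% in the barcodes of 100 to under 500 UMIs. Pla2g1b, at 0.0944% against 0.0424%, and Defa21, at 2.43% against 1.74%, were among others with a higher share in the EECs than in the other ENR+CD cells. In the ENR EECs Itln1 made up 7.92%. In the 12 EECs of at least 4% chromogranin it made up 63.4%, but 2 cells with 254 and 222 Itln1 UMIs held most of its 535 UMIs, and the share was 48.9% without the cell with most. In the 23 EECs under 1% Paneth UMIs the share was 28.1%, and in 130 other ENR+CD cells under 1% it was 21.2%. A higher Itln1 proportion was thus also present in other cells of low Paneth content.

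Goblet and proliferation genes were lower in part, and enterocyte genes were called in both directions. Over all genes 7.30% were higher and 1.72% lower. Of 14 goblet genes, 13 passed and 8 were lower, among them Spink4 at 1716 CPM against 4690 CPM and Tff3, trefoil factor 3, at 2081 CPM against 5630 CPM, and Muc2 had 3 UMIs. The 16 enterocyte genes took 0.190% of the EEC UMIs (0.173 to 0.209) against 0.0765% in the other cells. Of 12 that passed, 2 were higher and 2 lower, with a median log2 ratio of 0.30. Sis, sucrase-isomaltase, was among the higher at 537.5 CPM against 109 CPM, and Anpep and Fabp2 were the lower ones. Of 20 proliferation genes 6 were lower, namely Mki67, Birc5, Cenpa, Ccnb1, Ube2c and Pcna, and the list took 0.0759% of the EEC UMIs against 0.143%. None of the 20 was lower when the rule was applied to cells thinned to 1000 UMIs, and with a threshold of 0.5% 2 of the goblet genes were lower. In the tuft cell list, 5 of 11 genes passed and none was called, with the list at 0.00390% and 0.00399% of the UMIs.

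Genes of the pathways that the ENR+CD medium acts on were mostly counted as neither, and several of the single calls among them were lost under other settings. Over all genes 7.30% were higher and 1.72% lower. Of 18 Wnt target genes 17 passed, with Ephb3 higher and Mmp7, Ccnd1 and Rnf43 lower. Axin2, a feedback inhibitor of Wnt signaling, stood at 147 CPM against 161 CPM, and Nkd1, of the same kind, at 113 CPM against 132 CPM, ratios of 0.916 and 0.853. Of 17 Notch pathway genes 11 passed. Hes1, a target of Notch signaling, was lower at 47.7 CPM against 96.1 CPM, a ratio of 0.496 (0.246 to 0.897), and the ligand Dll4 was higher at 47.7 CPM against 17.4 CPM. Hes1 was not counted as lower with a threshold of 0.5% or 2%, with thinned cells or without the cells of at least 10% Paneth UMIs. Dll4 was not counted as higher with 0.5%, under median-of-ratios scaling, with a total without chromogranins and Paneth genes, with a minimum of 100 UMIs or against cells free of Chga and Chgb. Of 14 stem cell genes 13 passed and only Rnf43 was lower, a call lost with 0.5% and with thinned cells, with Lgr5 at 11 UMIs and Olfm4 at 0. Of 9 secretory fate genes 8 passed and Spdef, a factor of goblet and Paneth cells, was lower with 1 UMI and a ratio of 0.149 (0.00375 to 0.848), a call lost with 0.5%, with 2%, without the Paneth-rich cells and against cells free of Chga and Chgb. Of 16 genes of the unfolded protein response, only Sdf2l1 was called, and it was lower. With 0.5%, with thinned cells, without the Paneth-rich cells and against cells free of Chga and Chgb none of them was lower, and without the Paneth-rich cells 1 was higher. In the dissociation stress list Nr4a1 was higher, a call lost with 0.5% and with thinned cells, and Ier3 lower, a call lost with 0.5%, and the list took 0.336% of the EEC UMIs against 0.295%.

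The ENR+CD EECs were then set beside the 60 ENR EECs found by the same rule, whose median mitochondrial share was 11.8%. Of 3398 genes that passed the minimum, 185 (5.44%) were higher and 159 (4.68%) lower in ENR+CD, and the median log2 ratio was 0.16. Under the median-of-ratios scaling, which moved that median to 0.00115, 139 were higher and 207 lower, so the share of higher calls went from 53.8% to 40.2%. The chromogranins were used by the rule in both libraries. In ENR+CD Chgb stood at 21603 CPM, against 30150 CPM in ENR, and Chga at 3420 against 7570 CPM.

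Sct, which led 30 of the ENR+CD EECs, was higher there than in ENR. It stood at 4976 and 542 CPM, a ratio of 9.18 (7.25 to 11.8) that ran from 8.39 to 11.7 without the cell with most UMIs in either group. It was at 2 or more UMIs in 76 of 105 cells and in 9 of 60. After thinning, Sct was found in 75.2% of the ENR+CD EECs and in 20% of the ENR EECs. Its level in the ENR EECs was below that in the ENR+CD barcodes of 100 to under 500 UMIs (1526 CPM) and close to that in the defensin-rich ENR+CD cells (609 CPM). Both of these are levels of the other library, and the level in such ENR barcodes was not computed. No ENR EEC was led by Sct, while Tac1 led 30 of 60.

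Of 11 hormones that passed the minimum, Sct, Iapp, Pyy and Gast were higher, Nts, Gip and Ucn3 lower, and Tac1, Cck, Gcg and Ghrl neither. Over all genes 5.44% were higher and 4.68% lower. Iapp had 64 UMIs in ENR+CD and 4 in ENR, a ratio of 9.46 (3.52 to 35.8). Pyy had 27 UMIs and 1 UMI, a ratio of 15.97 (2.63 to 653.8), and at a threshold of 0.5% its log2 ratio turned to -0.33. Gast had 56 UMIs and 0, at least 11.04-fold higher by a floor of 3 UMIs in the ENR group. At a threshold of 2% it had 3 UMIs in ENR+CD and 0 in ENR. The log2 ratio of -0.45 there sets these 3 UMIs against the floor, so it shows no reversal. Tac1 stood at 3745 and 5233 CPM, a ratio of 0.716 (0.647 to 0.791). Gcg stood at 5041 and 3606 CPM, a ratio of 1.40 that came to 0.566 without the ENR+CD cell with most and 8.11 without the ENR cell with most. Cck, at 4460 and 6588 CPM, had a ratio of 0.677, and of 0.431 and 1.12 without those cells. The Cck and Gcg levels thus rested on single cells in both groups.

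The lower hormones included genes at or near 0 in ENR+CD. Nts had 287 UMIs in 2 ENR EECs, 200 of them in 1, and 0 in ENR+CD, at least 162-fold lower and at least 49.7-fold lower without the ENR cell with most. Ucn3, urocortin 3, had 86 UMIs in ENR, with at least 2 UMIs in 14 cells. Of these 14, 11 also had at least 2 Tac1 UMIs, as did 40 of all 60 ENR EECs. Ucn3 had 2 UMIs in ENR+CD, which gives a ratio of 0.0138 (0.00164 to 0.0512), or 0.00701 without 1 of those 2 cells. Gip, at 693.5 and 2646 CPM, had a ratio of 0.262 that came to 1.005 without the ENR cell with 270 UMIs.

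The serotonin and histamine genes differed in opposite directions. Tph1 stood at 273 CPM in ENR+CD and at 1055 CPM in ENR, a ratio of 0.259 (0.189 to 0.350). Tac1-led cells made up 25 of 105 EECs in ENR+CD and 30 of 60 in ENR. Within these cells Tph1 differed less, at 761.8 CPM (557.8 to 1016) in ENR+CD and 1468 CPM (1213 to 1761) in ENR. The part of the different share of Tac1-led cells in the pooled ratio was not tested. Slc18a2 had 3 UMIs in ENR+CD and 33 in ENR, a ratio of 0.0538 (0.0106 to 0.171). Hdc had 98 UMIs in 25 ENR+CD EECs and 0 in ENR, at least 19.3-fold higher. Ddc, Gch1 and Slc18a1 were counted as neither. Trpa1, an irritant-sensing channel of serotonin cells, had 52 UMIs in the ENR EECs and 0 in ENR+CD, at least 29.3-fold lower, and was at 0 in the other ENR+CD cells as well. Lmx1a, with 6 and 23 UMIs, had a ratio of 0.154 (0.0514 to 0.390), and Rfx6 was lower too, while Runx1t1, with 39 and 2 UMIs, had a ratio of 11.5 (2.99 to 98.6), or 22.1 without 1 of those 2 ENR cells, and Sox4 was higher at 347 and 125 CPM.

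Among granule and processing genes, Scg2, Cpe and Pcsk1n were higher in ENR+CD and Chga lower. Scg2 stood at 1482 and 388 CPM, a ratio of 3.82 (2.85 to 5.20) that came to 6.11 without the ENR cell with most. Cpe stood at 1482 and 484 CPM, a ratio of 3.07 (2.35 to 4.05), and Pcsk1n had 78 and 5 UMIs, a ratio of 9.23 (3.79 to 29.2) that came to 22.8 without the ENR cell with most. Pcsk1 and Resp18 were counted as neither, with ratios of 0.714 and 0.865.

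**Figure D5:**
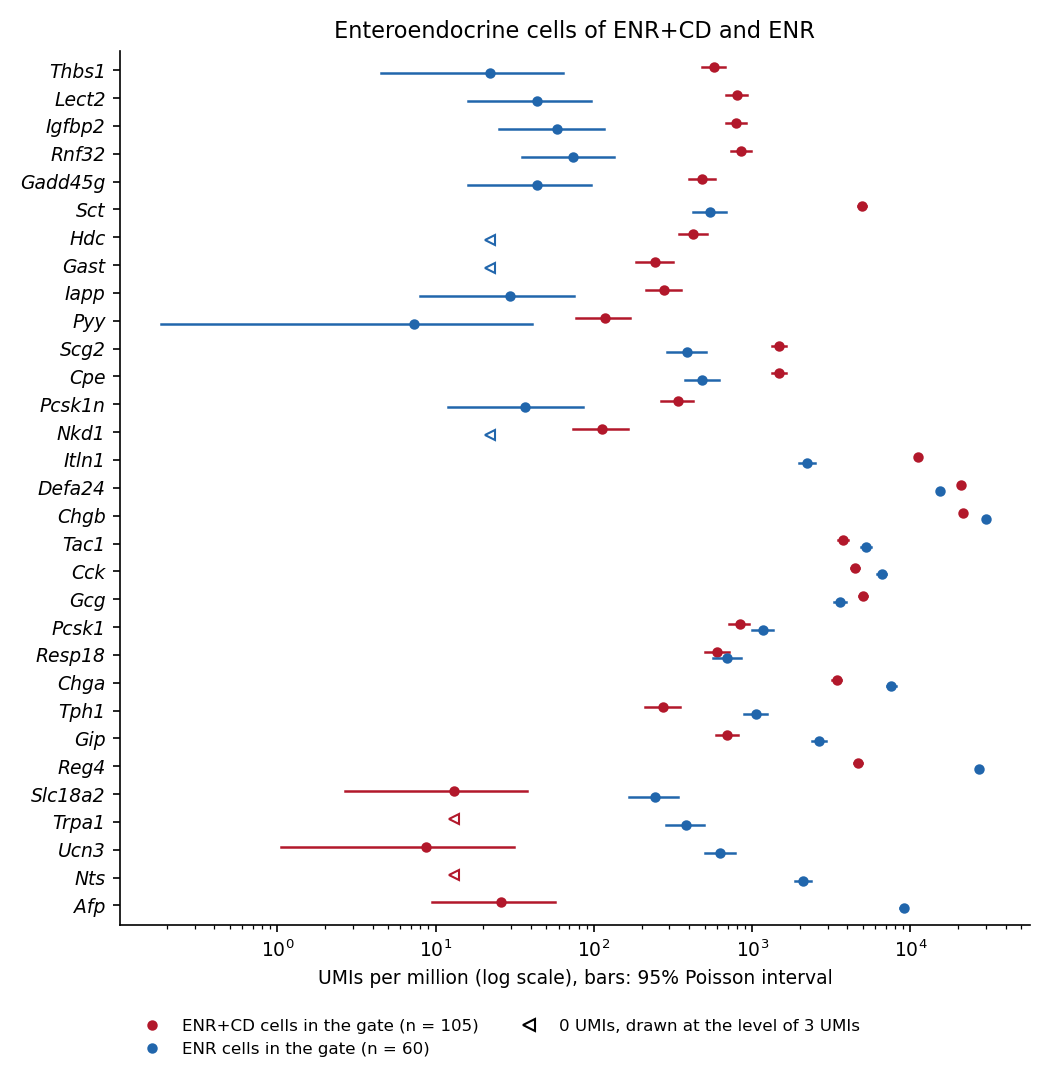
Level of named genes in CPM (x axis, log scale) in the EECs of ENR+CD (red, 105 cells) and ENR (blue, 60 cells), with 95% Poisson intervals as bars and genes at 0 UMIs drawn as open triangles at the level of 3 UMIs. Red points lie to the right for the genes at the top, such as Thbs1, Sct and Hdc, and blue points for those at the bottom, such as Reg4, Nts and Afp.

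Outside these lists Thbs1 had the highest ratio. Thbs1, thrombospondin 1, stood at 572 and 21.99 CPM, a ratio of 26.02 (8.71 to 128), and was at 598 CPM in the other ENR+CD cells. Igfbp2 stood at 793 and 58.6 CPM, a ratio of 13.5 (6.72 to 31.8), or 21.5 without the ENR cell with most. Lect2, a secreted chemotactic factor, had 184 UMIs in ENR+CD and 6 in ENR, 5 of them in 1 cell, a ratio of 18.1 (8.18 to 50.1) that came to 105 without that cell. Rnf32, a RING finger protein, had a ratio of 11.6, or 18.7 without the ENR cell with most, and Gadd45g, a growth arrest protein, of 11.04. Fxyd3, a regulator of the sodium pump, had a ratio of 4.20. Lect2, Rnf32 and Gadd45g were also 2.12- to 4.19-fold higher in the EECs than in the other ENR+CD cells.

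Paneth genes were higher in the ENR+CD EECs than in the ENR EECs, at 5.51% against 2.81% (2.73 to 2.90) of the UMIs. The median share per cell was 4.09% against 0.378%. It was under 1% in 23 of 105 ENR+CD and in 40 of 60 ENR EECs. Of 16 that passed 10 were higher, beside 5.44% of all genes. Among them were Itln1 at 11114 and 2228 CPM and the alpha-defensins Defa21 and Defa3 with ratios of 7.31 and 5.91. The Defa21 ratio was 5.06 without the ENR+CD cell with most and 11.2 without the ENR cell with most. Defa24 was counted as neither, at 20858 and 15427 CPM. In ENR 1282 of its UMIs lay in the 5 EECs with at least 10% Paneth UMIs, and in ENR+CD 2818 lay in 21 such cells. The pooled Defa24 levels thus rested largely on few cells, above all in ENR. The other cells of each library differed in the same direction, with a mean of 15.6% of UMIs per cell (SD over cells 10.8) in ENR+CD and 3.72% (SD 6.49) in ENR. Of the Wnt targets, 8 passed and Mmp7, Nkd1 and Sox9 were higher. Nkd1 had 26 UMIs in ENR+CD and 0 in ENR, at least 5.13-fold higher.

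Afp and Reg4, both abundant in the ENR EECs, were lower in ENR+CD. Afp, alpha-fetoprotein, had 1235 UMIs in the 60 ENR EECs (9051 CPM), with at least 2 UMIs in 28 cells and 376 in the highest, and 6 UMIs in the 105 ENR+CD EECs, 348-fold lower (159 to 950.2). Its ratio of 0.00287 came to 0.00145 without the ENR+CD cell with most and 0.00395 without the ENR cell with most. In ENR 1008 Afp UMIs lay in Tac1-led cells. Reg4 stood at 4642 and 27175 CPM, 5.85-fold lower (5.47 to 6.27), with at least 2 UMIs in 36 of 105 and 41 of 60 cells. Gstt1, a glutathione transferase, was 27.7-fold lower and Ldha, lactate dehydrogenase A, 8.68-fold lower. S100a1, Me2, Pigr, Mif and Krt19 were 5.67- to 7.97-fold lower, and Fabp2, Fabp1 and Slc5a1 of the enterocyte list were lower as well.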

How the data were processed

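Seq-Well arrays of ENR, ENR+CD and ENR+CV organoids, 1 library each, were read as raw UMI counts per gene and cell, which the authors deposited as a merged table of cells with at least 1000 UMIs. The reads were demultiplexed with bcl2fastq, aligned to mm10 and collapsed by barcode and UMI. The submitters' processing notes also name STAR and Seurat, with versions and annotation not given in the sources used here. Deposited single-library counts labelled ENR+CD hold the ENR+CV cells of the merged table and the reverse (1092 and 2506 identical cells). Cell names in the merged table decided the condition here, and the single-library tables gave the barcodes below 1000 UMIs and the reads per UMI (21.4 in the EECs and 18.1 in the other ENR+CD cells).

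Cells with fewer than 400 genes (46 in ENR+CD) or 8000 or more UMIs (77) were left out. The EECs held 230707 UMIs, the other ENR+CD cells 4307681 and the ENR EECs 136451. UMIs were summed over the cells of a group and divided by the group total, with exact Poisson 95% intervals for levels, conditional binomial ones for ratios and Clopper-Pearson ones for shares. Cells are not replicates, so no p-value was computed. A group at 0 UMIs was set to 3 UMIs for a bound, and thinning drew 1000 UMIs per cell (seed 11). Scrublet (through Scanpy 1.11.5, expected rate 6%) was run for doublets, and none were removed. The scripts ran in Python 3.11.15 with pandas 2.3.3, NumPy 2.4.6, SciPy 1.17.1 and Matplotlib 3.10.9, and the contrasts were tested on simulated counts.

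The members and the 20 gene lists were chosen with earlier results of these data known. Named genes were the 4 markers and Neurog3, the 20 highest and 10 lowest ratios against the other ENR+CD cells and the 10 highest and lowest against the ENR EECs among genes with at least 100 UMIs in the pair, every measured hormone, granin, processing, amine and endocrine factor gene, and the 4 members with most UMIs of each further list. A few further genes of low level, such as Kcnh2, Casr and Ccnb1, were chosen after their values were seen. Of 23271 symbols, 21756 (93.5%) matched GENCODE vM21, and promoters came from RefSeq. Alternatives changed the threshold, the Neurog3 limit, the UMI limits, the scaling, the minimum and the comparison cells. Leaving out the cell with most UMIs of a gene was chosen after seeing the data. A few members of the gene lists are not reported by name here.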

Additional observations from a re-analysis of the deposited data

Results flagged for a closer look

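Barcodes below the 1000 UMI minimum entered no comparison. Of 2823 ENR+CD barcodes with 500 to under 1000 UMIs, 159 met the chromogranin and Neurog3 rule, 5.63% (95% Clopper-Pearson interval 4.81 to 6.55). In ENR 62 of 2577 such barcodes met it, 2.41% (1.85 to 3.07), and in ENR+CV 0 of 716, which allows up to 0.419%. They were looked at because the signal lies outside the cells used and above the level in the ENR control library. At 500 UMIs the 1% threshold is 5 chromogranin UMIs.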

How the results depend on the processing

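A count was taken as moved beyond 1.5 times its value and a share outside its 95% counting interval. Of the values that moved, the share of ENR+CD cells found (4.41%) was 18.2% with a threshold of 0.5% chromogranin, 1.85% with 2%, 5.41% with the rule applied to thinned cells and 3.53% without cells of 10% or more Paneth UMIs. Genes higher and lower than in the other ENR+CD cells (792 and 187) were 383 and 66 with 0.5% and 523 and 306 under median-of-ratios scaling, and 479 were higher with a minimum of 100 UMIs. Against the ENR EECs (185 and 159) they were 320 and 320 with 0.5%, 122 and 91 with 2%, 47 and 26 with a minimum of 100 UMIs, and 257 were lower with no minimum. The granin share (2.86%) was 1.38% with 0.5%, 4.01% with 2%, 2.47% with thinned cells, 3.08% without the Paneth-rich cells and 2.53% as a mean over cells, and the hormone share (1.995%) was 1.09%, 1.39%, 1.33%, 2.12% and 1.82%. The Paneth share (5.51%) was 10.9%, 3.11%, 6.57%, 3.18% and 6.71%. With any number of Neurog3 UMIs the hormone share was 1.85% and the Paneth share 5.11%. The counts of 792 and 187 were within 1.5 times of 839 and 221 with no upper UMI limit, 614 and 246 with a total without chromogranins and Paneth genes, and 536 and 192 against cells free of Chga and Chgb.

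The log2 ratio against the other ENR+CD cells turned to 0.15 for Ccnb1 with 0.5%, to -0.80 for Gcg with 2% and to 2.54 for Neurog3 with any number of its UMIs. Against the ENR EECs it turned to -0.33 for Pyy with 0.5% and to 0.0072 for Gip without the ENR cell with most of its UMIs. For Gast with 2% the value of -0.45 came from the floor of 3 UMIs for ENR at 0, beside 3 UMIs in ENR+CD, and is no reversal. The causes were not tested. No paired analysis was possible because each condition was 1 library. The 105 cells limit a gene at 0 UMIs to 13.0 CPM, and differences between cells of 1 library say nothing of the spread between cultures.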
